A study of Mus musculus with 16 samples.

Results

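RNA polymerase II and the Mediator complex were followed in mouse oocytes and eggs through the transcripts that encode them. Members were all entries of the expression table named Med followed by a number (with or without a final l) or Polr2a to Polr2m, together with Cdk7, Cdk8, Cdk9, Cdk19, Ccnc and Ccnt1. This gave 51 entries of 28618, under 49 gene names: 13 Polr2 genes, 30 Med genes in 32 entries, and the 6 kinases and cyclins. Med11 and Med21 each had 2 entries, which were kept apart. Here they are called entry 1 and entry 2 in the order of the table, since how the entries of a name differ was not given in the sources used here.

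RNA polymerase II transcribes protein-coding genes, and its largest subunit, encoded by Polr2a, carries the carboxy-terminal domain (CTD) of heptapeptide repeats that kinases phosphorylate as transcription starts and proceeds. Mediator bridges DNA-bound activators and the polymerase through its head, middle and tail modules, held on the Med14 scaffold, and a detachable kinase module built on Cdk8 or Cdk19 with cyclin C controls that contact. Fully grown oocytes at the germinal vesicle (GV) stage, before meiosis resumes, have ceased most transcription. Maturation to the metaphase II (MII) egg therefore runs on stored mRNA, some of it degraded and some translated after its poly(A) tail is lengthened.

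The study asked what loss of Psma7, which encodes an alpha subunit of the 20S proteasome core, does to the oocyte. WT GV oocytes, Psma7 cKO GV oocytes, WT eggs and Psma7 cKO eggs were compared, with 4 libraries a group and 16 in all. Psma7 cKO females carried floxed Psma7 alleles and Zp3-Cre, a transgene active in growing oocytes, so that follicle cells kept Psma7. All females were 3 to 4 weeks old and were primed with 5 IU PMSG. GV oocytes were collected at 44 h, and eggs 14 to 16 h after a further injection of hCG with cumulus cells removed in 0.3% hyaluronidase. Each library came from a pool of 5 cells per the labels (the study's methods state another pool size), amplified from oligo-dT primed cDNA. No source says that pools came from separate females, so p-values measure the spread between pools.

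Libraries held 10.5 to 15.7 M fragments, and the values were fragments scaled to the length of the entry and to library depth (FPKM). Psma7 stood at 142 to 201 FPKM in WT GV oocytes and 11.1 to 18.0 in Psma7 cKO GV oocytes, 8.83% of the WT mean. In eggs it stood at 97.7 to 172 FPKM in WT and at 13.6, 50.3, 35.0 and 59.9 in Psma7 cKO replicates 1 to 4, 31.5% of the WT mean. Replicate 1 thus had the lowest Psma7 among the Psma7 cKO eggs. The mean of Psma7 rose from 14.6 FPKM in Psma7 cKO GV oocytes to 39.7 in Psma7 cKO eggs (log2 fold change 1.27, limma adjusted p = 0.0188). In WT it fell from 165 to 126 FPKM. The part of this rise in the egg results was not tested. The summed level of 10 oocyte genes was 15751 to 16940 FPKM in GV oocytes. Among eggs it spanned 9949 to 12755 FPKM for WT and 12075 to 14377 for Psma7 cKO. The genes of the list differed unevenly. Zp3, a zona pellucida gene, had egg means of 406 (WT) and 948 (Psma7 cKO), and Ooep 1420 and 2063. In the same order, means were also higher in Psma7 cKO for Zp1 (148 and 238), Zp2 (334 and 604) and Figla (1.60 and 4.96). Mos (290 and 352) and Oosp1 (5360 and 5864) were higher by less. Bmp15 (1440 and 1460) and Nlrp5 (411.0 and 411.5) were nearly level, and Gdf9 was lower in Psma7 cKO (1666 and 1580). The part of the shift of the summed level in the egg results was not tested. The sum of 10 cumulus and granulosa genes was 7.42 to 15.2 FPKM in all libraries, most of it from Cyp19a1, with Amh, Foxl2 and Tnfaip6 at or near 0. Fewer cells and less RNA per cell cannot be told apart in such pools, nor can less mRNA and a shorter poly(A) tail.

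The transcripts of the members were present at very unequal levels. In WT GV oocytes the highest were Polr2g at 553 ± 97.1 FPKM (SD, n = 4), Polr2c at 521 ± 19.2 and Polr2j at 436 ± 106, and these 3 overlapped in their libraries. Polr2g encodes part of the stalk that binds emerging RNA, while the Polr2c and Polr2j products pair as the platform on which the polymerase assembles. The lowest were Med12l at 0.680 ± 0.121 FPKM, Med21 entry 1 at 0.318 ± 0.165 and Cdk19 at 0.176 ± 0.0255. FPKM is scaled to the length of the entry, so these levels compare between genes only as far as that length holds. For some members the length recovered from the values was far from that of an annotated coding transcript (GENCODE M21). It was 7598 against 1988 bases for Cdk7, 2982 against 913 for Med10 and 2754 against 7397 for Ccnt1. Levels ran lower for longer entries (Spearman's rho -0.317 over the 51 entries, which share the same libraries). Of the 51, 37 were at 1 FPKM or more in every library, 4 were below it in every library and 10 crossed it.

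Polr2a, which encodes the catalytic subunit, was the lowest of the polymerase transcripts in WT GV oocytes. Its values were 1.40, 1.13, 0.797 and 0.819 FPKM in WT GV oocytes and 1.10, 1.42, 0.902 and 1.26 in WT eggs. In Psma7 cKO it gave 1.44, 1.09, 0.910 and 0.945 FPKM in GV oocytes and 1.14, 1.24, 1.43 and 1.04 in eggs. The 4 groups overlapped throughout, and 62 to 145 fragments stood behind each value. The highest Polr2 transcript exceeded Polr2a 533-fold in WT GV oocytes and 869-fold in WT eggs.

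**Figure D1:**
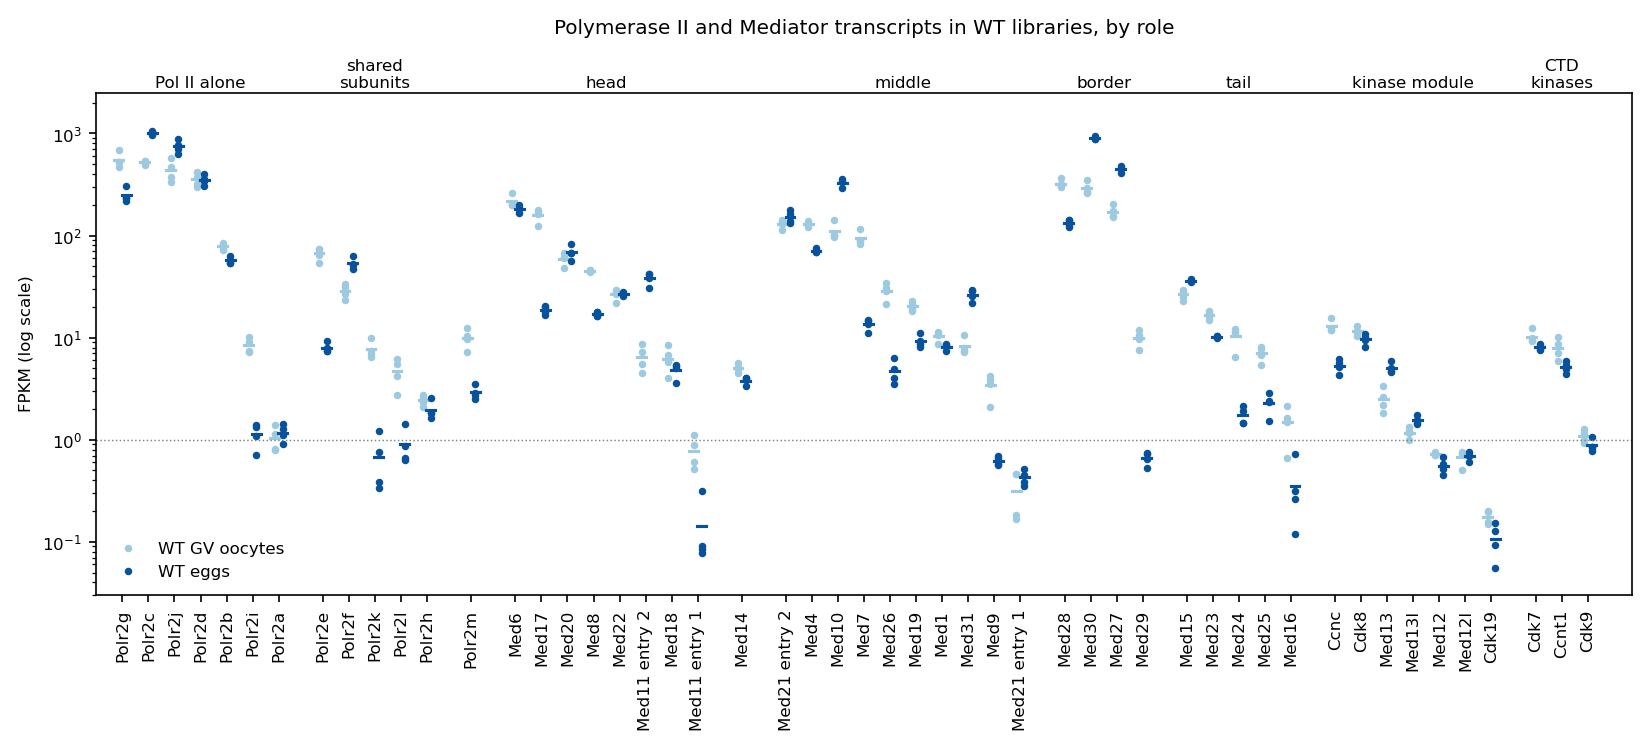
FPKM (log axis) of the 51 entries in WT GV oocytes (light blue) and WT eggs (dark blue), grouped by role, with Polr2m and Med14 standing alone. Points are the 4 libraries a group, short lines their means, and the dotted line 1 FPKM; Polr2a lies near 1 FPKM while Polr2c reaches 1019 FPKM in eggs.

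Within Mediator, the genes at the border of head and tail were among the highest in WT GV oocytes (Med28 at 323 FPKM, Med30 at 294, Med27 at 172), although Med29 of the same group stood at 9.91. Head subunits ranged from 0.783 (Med11 entry 1) to 217 FPKM (Med6) and middle subunits from 0.318 (Med21 entry 1) to 131 (Med21 entry 2). The kinase module was low: its cyclin Ccnc at 12.9 and Cdk8 at 11.6 FPKM stood above Med13 at 2.50, Med13l at 1.17, and Med12, Med12l and Cdk19, which were all below 1. Outside Mediator, the kinases that phosphorylate the CTD were also modest, with Cdk7 of the general factor TFIIH at 10.2 FPKM, Cdk9 of the elongation kinase P-TEFb at 1.09, and its cyclin Ccnt1 at 7.93.

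Maturation changed most of the machinery, in both directions. Between WT GV oocytes and WT eggs, 11 of the 44 entries tested rose and 24 fell, against 26.1% and 52.4% of all 10475 entries tested (limma on log2 of FPKM with values below 1 set to 1, Benjamini-Hochberg adjusted p under 0.05). These shares lay near the background. The median log2 fold change was -0.383 over the members and -0.442 over all entries. FPKM is a share of the library and the table held no spike-in entries, so rises and falls here are relative to the other transcripts. The amount per cell was not measured, and the direction of a small change depends on scaling. Rescaling the libraries by median ratios moved the median of all entries to -0.21, a shift over 0.1. It left 14 members higher and 20 lower, with all 11 of the risers kept. The shares of all entries were not counted after rescaling.

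The risers were led by Mediator subunits. Med31, a small middle-module subunit, stood at 7.30, 7.32, 10.6 and 7.97 FPKM in WT GV oocytes and at 28.8, 29.0, 22.1 and 25.6 in WT eggs. Every egg library lay above every GV library, and the log2 fold change was 1.68 (SE 0.143, adjusted p = 1.14e-06). Med30 went from 261, 268, 351 and 295 FPKM to 875, 939, 903 and 886, again without overlap (log2 fold change 1.63, SE 0.0974, adjusted p = 7.1e-08). Med10, another middle subunit, went from 97.8, 102, 142 and 100.2 FPKM to 336, 339, 292 and 357 (log2 fold change 1.59, SE 0.123). Med27 rose by a log2 fold change of 1.39 (SE 0.102) and Med11 entry 2 by 2.59 (SE 0.193), the highest of all members. Med13, Med13l and Med15 also rose, by 1.05, 0.40 and 0.46. The call of Med13l was lost with a floor of 0.1 FPKM, with 1 FPKM added, with the replicate number as a block and without WT egg replicate 3.

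Of the polymerase subunits tested, 3 of 13 rose and 7 fell. Polr2c went from 535, 496, 537 and 517 FPKM to 999, 1063, 1038 and 974, without overlap (log2 fold change 0.97, SE 0.0691, adjusted p = 2.86e-07). Its partner Polr2j rose by 0.80 (SE 0.165), and Polr2f, a small subunit shared by all 3 nuclear polymerases, by 0.91 (SE 0.129). Of the stalk pair, Polr2g fell by 1.16 on the log2 scale (SE 0.136), while Polr2d gave -0.01 (SE 0.118, adjusted p = 0.97). Polr2b, the second-largest subunit, fell by 0.46 (SE 0.0839), and Polr2a gave 0.08 (SE 0.161, adjusted p = 0.668).

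The 8 deepest falls were in 3 small polymerase subunits, Polr2e, Polr2k and Polr2i, and in 5 Mediator genes of the head, middle, border and tail. Polr2e, shared by the 3 polymerases, went from 65.0, 54.3, 74.5 and 73.4 FPKM to 7.94, 7.33, 7.42 and 9.18 in eggs, leaving 11.9% of the GV mean (log2 fold change -3.06, SE 0.121, adjusted p = 3.88e-09). Med17, a core head subunit, went from 172, 178, 124 and 163 FPKM to 16.7, 20.4, 18.0 and 19.8, leaving 11.7% (log2 fold change -3.08, SE 0.121). Med29 went from 10.5, 7.63, 11.7 and 9.75 FPKM to 0.748, 0.728, 0.646 and 0.526. All 4 egg values of Med29 lie below the floor of 1, so its log2 fold change of -3.29 understates a fall to 6.68% of the GV mean. Polr2k (-2.86), Polr2i (-2.81), Med7 (-2.79), Med26 (-2.63) and Med24 (-2.56) followed. Polr2l, Polr2m, Med9, Med25, Med8, Ccnc, Med28, Med19, Med4, Med23, Ccnt1, Polr2b, Med14, Med1 and Cdk7 also fell, with log2 fold changes from -2.03 to -0.34. The CTD kinase gene Cdk7 (-0.34, SE 0.121, adjusted p = 0.0229) and the cyclin gene Ccnt1 (-0.60, SE 0.174, adjusted p = 0.00857) lost their calls after median-ratio rescaling (adjusted p = 0.451 and 0.0553), as did Med1 and Med14. Cdk9 was under the filter of a mean of 1 FPKM over the libraries compared.

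By role, the shared polymerase subunits had the lowest median log2 fold change in WT (-2.03 over 5 entries, 1 risen and 3 fallen) and the Mediator tail and middle were also negative (-1.17 over 4 and -0.87 over 9). The head (-0.24 over 7, 1 risen and 2 fallen) and the border genes (0.06 over 4, 2 risen and 2 fallen) were mixed. Under the rule of more than 3-fold between means with a floor of 1 FPKM, 3 of the 44 members tested were higher and 12 lower (27.3%), against 1.07% and 22.1% of all entries tested.

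Psma7 cKO oocytes went through the same stages with 12 members higher and 24 lower of 47 tested, against 23.0% and 51.0% of all 10748 entries tested. The lists overlapped in 9 risers (81.8% of the WT list, 75.0% of the Psma7 cKO list) and in 22 fallers (91.7% of each). The matching overlap over all entries was not counted, so these shares are not shown to be particular to the members. Med30 (1.45, SE 0.0944), Med10 (1.58, SE 0.104), Med31 (1.76, SE 0.218), Med27 (1.33, SE 0.0951) and Polr2f (1.12, SE 0.138) were the 5 highest. Med17 (-2.66, SE 0.138), Med24 (-2.66, SE 0.145), Med29 (-2.43, SE 0.421), Med26 (-2.33, SE 0.174) and Polr2e (-2.06, SE 0.319) were the 5 lowest. Polr2d, at 366, 333, 314 and 402 FPKM in Psma7 cKO GV oocytes and 589, 486, 483 and 468 in Psma7 cKO eggs, rose by 0.52 (SE 0.108, adjusted p = 0.00182). Med21 entry 2 rose by 0.84 (SE 0.24, adjusted p = 0.0105) and Med11 entry 1 by 1.11 (SE 0.4, adjusted p = 0.0306), while Med11 entry 2 gave 0.60 (SE 0.491, adjusted p = 0.289). The call of entry 1 held in only 2 of the 8 fits that left out 1 library (without Psma7 cKO GV replicate 1 or egg replicate 1, adjusted p 0.00018 to 0.0783 over the 8) and in 3 of 8 other settings (adjusted p up to 0.613). Polr2a gave 0.11 (SE 0.155, adjusted p = 0.552), Cdk7 -0.02 (SE 0.12, adjusted p = 0.903), Cdk9 -0.30 (SE 0.15, adjusted p = 0.0952) and Ccnt1 -0.32 (SE 0.145, adjusted p = 0.0703), none past the threshold. After median-ratio rescaling 14 members were higher and 21 lower, with no share of all entries counted beside them. By the 3-fold rule 1 was higher and 9 lower (19.1%), against 0.856% and 17.2% of all entries tested.

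**Figure D2:**
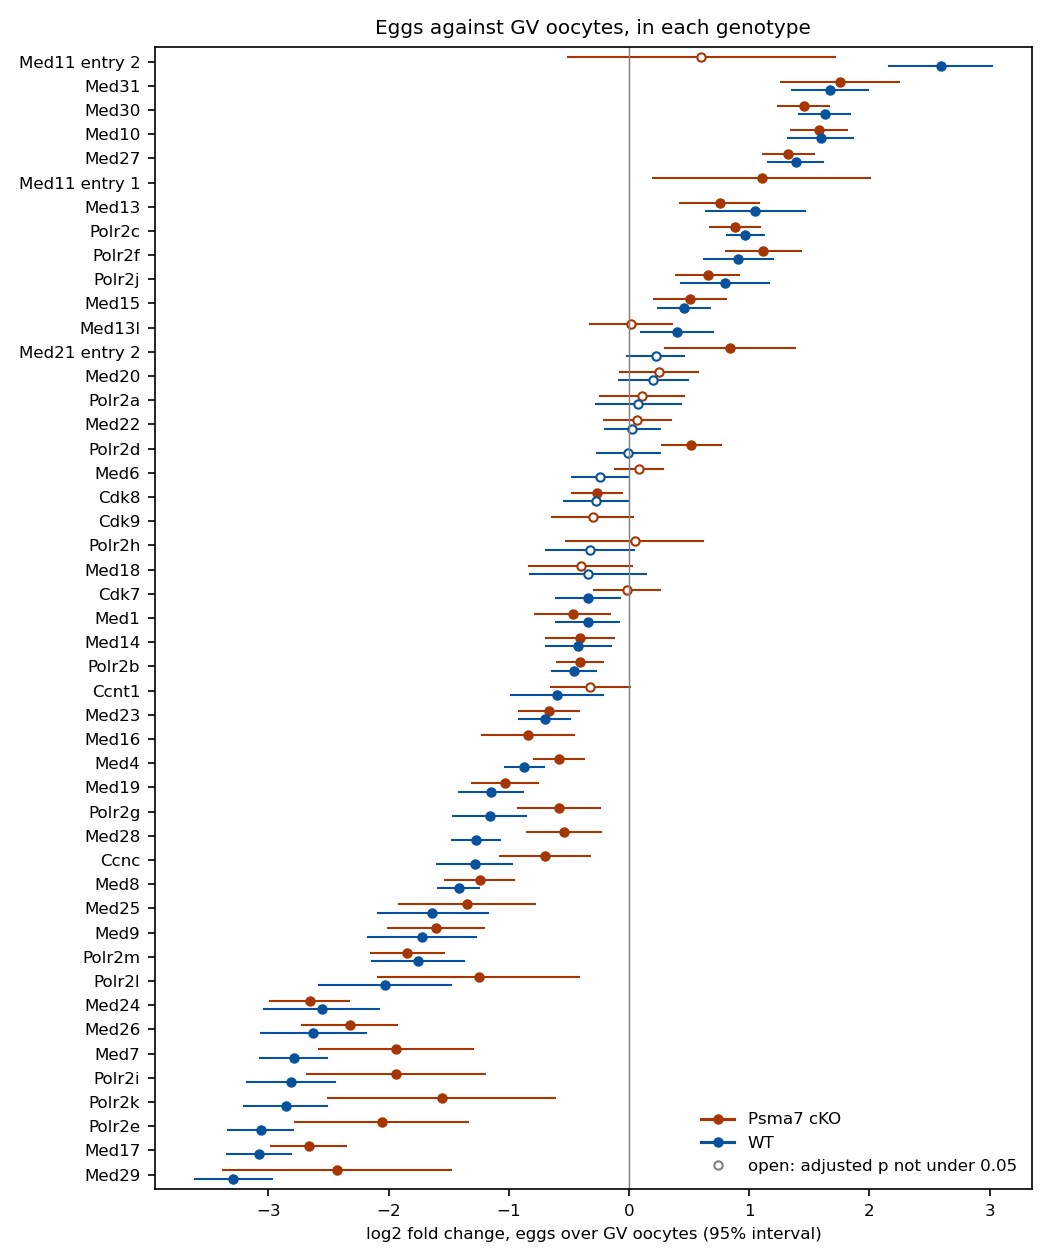
log2 fold change of eggs over GV oocytes for each member tested, in WT (blue) and Psma7 cKO (brown), with 95% intervals from limma on 4 libraries a group. Filled points passed an adjusted p of 0.05; Med11 entry 2 stands at 2.59 in WT and 0.60 in Psma7 cKO.

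The 3' ends of these transcripts were searched for the cytoplasmic polyadenylation element, a U-rich motif bound by CPEB that marks stored mRNAs for tail lengthening. The letters TTTTAT and TTTTAAT were sought on the transcript strand, in the last 150 bases of 1 coding transcript per gene (GENCODE M21, GRCm38, the assembly also called mm10). All 49 gene names matched, and 18 held a match. Of the 44 entries tested in WT, 15 (34.1%) had one, against 25.4% of the 8825 tested entries with an annotated end. Among those that rose it was 5 of 11 (45.5%), against 37.5% of all entries that rose. Among those that fell it was 6 of 24 (25.0%), against 17.4% of all that fell. A match is a string of letters and not evidence of binding, and the 2 strings share their first 5 letters. Whether these oocytes use the annotated end was not tested. For some members the recovered length was far from that of the transcript searched, as for Med27 (4178 against 1254 bases) and Polr2f (569 against 885). A match or its absence is therefore known only for the annotated end. The match nearest the annotated end is shown for the 4 risers with a match that rose most, since the rises were measured on poly(A)-primed cDNA, and then for the 2 members with a match that fell most. Capitals mark the motif, and each run of 30 bases lies in the 3' UTR in the last exon.
Med31, chr11:72211733-72211762, minus strand, 21 bases from the annotated end: agttggcaaattTTTTATtaataaattatt
Med10, chr13:69815997-69816026, plus strand, 90 bases from the end: gagaaaactcggTTTTATagttacattttc
Polr2f, chr15:79151720-79151749, plus strand, 37 bases from the end: tctctgtgcccgTTTTATatgtgtaaataa
Med11, chr11:70453698-70453727, plus strand, 3 bases from the end: ttaataataaaagctgtatttTTTTATaaa
Med24, chr11:98704644-98704673, minus strand, 65 bases from the end: tataagttttatTTTTATaacccatgaatg
Polr2k, chr15:36176900-36176929, plus strand, 90 bases from the end: atacaattgtaTTTTAATactttgtataaa
Med30, Med27 and Polr2c, which rose as well, had neither string in this window, as was the case for Polr2e, Med17, Med29, Polr2i, Med7 and Med26 among the deepest falls. Med10 held 2 matches, Med11 held 2 and Med24 held 2.

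In GV oocytes no member passed the threshold between Psma7 cKO and WT. None of 46 entries tested was called in either direction, against 0.0994% higher and 0.0181% lower of 11062, and none had an unadjusted p under 0.05 (7.62% and 3.06% of all entries did). A precision-weighted fit (limma voom) on the fragment numbers recovered from the FPKM values also called 0. The log2 fold change stayed within 0.3 of 0 for 45 of 46. Polr2a gave a log2 fold change of 0.00 (SE 0.181, 95% interval -0.40 to 0.40), Cdk7 -0.09 (SE 0.135, interval -0.38 to 0.21), Cdk9 0.20 (SE 0.181, interval -0.20 to 0.60) and Ccnt1 -0.08 (SE 0.177, interval -0.47 to 0.31). The exception was Med11 entry 2 at -0.77 (SE 0.359, adjusted p = 0.491). No tested member had groups that did not overlap, against 4.25% of all entries higher and 2.42% lower.

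In eggs, 3 members were higher in Psma7 cKO and 1 was lower, of 44 tested, against 6.53% higher and 1.49% lower of all 9492 entries. The members' shares, 6.82% and 2.27%, lay near these backgrounds. The median log2 fold change was 0.15 over the members and 0.07 over all entries. At an unadjusted p under 0.05, 14 members were higher (31.8%, against 20.6% of all entries) and 3 lower (6.82%, against 8.8%). The 3 members called higher were Med28, Polr2d and Med21 entry 2.

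Med28, at the border of head and tail, stood at 142, 143, 126 and 122 FPKM in WT eggs and at 266, 202, 244 and 169 in Psma7 cKO eggs. Every Psma7 cKO library lay above every WT library. The log2 fold change was 0.70 (SE 0.135, adjusted p = 0.0287), with an exact two-sided permutation p of 0.0286, the smallest that 4 against 4 can give. It had fallen from 323 ± 29.4 FPKM in WT GV oocytes (SD, n = 4) to 134 ± 10.8 in WT eggs, and the Psma7 cKO egg mean of 220 ± 42.9 lay between the 2.

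Polr2d, the stalk subunit, stood at 397, 343, 308 and 358 FPKM in WT eggs and at 589, 486, 483 and 468 in Psma7 cKO eggs, without overlap (log2 fold change 0.53, SE 0.0989, adjusted p = 0.0276). Med21 entry 2, a middle subunit, stood at 176, 133, 139 and 161 FPKM against 215, 187, 286 and 248, also without overlap (log2 fold change 0.61, SE 0.139, adjusted p = 0.0368). Entry 1 of Med21 held at most 9 fragments in any library, and the 2 entries summed gave 0.61 (adjusted p = 0.0361). These 3 calls were close to the threshold. None remained when any 1 of the 4 WT egg libraries was left out, while 7 members were called without Psma7 cKO replicate 2. Polr2d stayed called without each Psma7 cKO library. Med28 lost its call without Psma7 cKO replicate 1, the library with the lowest Psma7. Med21 entry 2 lost its call without replicate 1, 3 or 4, and also with the replicate number as a block and with all 16 libraries in one fit.

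The shared polymerase subunits had the highest median of any role in this comparison (0.61 over 5 entries), with none past the threshold. Polr2e stood at 7.94, 7.33, 7.42 and 9.18 FPKM in WT eggs and at 11.4, 10.0, 30.7 and 20.7 in Psma7 cKO eggs. The groups did not overlap, but the Psma7 cKO libraries spread 3-fold among themselves (log2 fold change 1.05, SE 0.32, adjusted p = 0.0708). Polr2k stood at 0.388, 0.765, 0.335 and 1.21 FPKM against 2.39, 0.751, 4.87 and 2.31, on 3 to 41 fragments (log2 fold change 1.12, SE 0.398, adjusted p = 0.105). Polr2h and Polr2l gave 0.61 and 0.53, and Polr2f 0.15. Polr2g, at 0.56 (adjusted p = 0.0629), Med4, at 0.32 (adjusted p = 0.0567), and Med17, at 0.38 (adjusted p = 0.094), also missed the threshold.

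Psma7 cKO replicate 3 was the highest Psma7 cKO egg library for Polr2e, Polr2k, Polr2l, Med7 and Med29. Over the 24 members that fell in WT, it kept a median of 57.5% of the Psma7 cKO GV mean. Replicates 1, 2 and 4 kept 40.4%, 40.8% and 41.8%. The study reported that some ovulated Psma7 cKO oocytes did not release the first polar body or stayed at the GV stage. The part of such cells in these egg pools, labelled MII, was not tested. The members' median egg difference was lower for longer entries, at 0.55 for 14 entries of up to 1300 bases, 0.13 for 12 of up to 3000 and 0.07 for 18 longer ones. Differences lay above 0 in 10, 9 and 13 of these, shares that did not run with length. The same split was not made over all entries. The part of length in the differences was not tested.

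Among tested members, 7 had Psma7 cKO eggs wholly above WT eggs (15.9%, against 13.6% of all entries) and 2 wholly below (4.55%, against 7.06%). The 2 below were Med11 entry 2 and Med13, whose libraries stood at 5.87, 5.08, 4.75 and 4.56 FPKM in WT eggs and 3.66, 4.00, 3.81 and 4.36 in Psma7 cKO eggs (log2 fold change -0.35, SE 0.122, adjusted p = 0.0975). Polr2a gave 0.02 (SE 0.165, interval -0.35 to 0.40), Cdk7 0.24 (SE 0.1, adjusted p = 0.152) and Ccnt1 0.20 (SE 0.141, adjusted p = 0.381). Cdk9, at 0.885 ± 0.13 FPKM in WT and 0.775 ± 0.225 in Psma7 cKO eggs (SD, n = 4), was under the filter. By the 3-fold rule, 0 members were higher and 1 lower in eggs, against 1.76% and 0.0211% of all entries tested, and in GV oocytes 0 were higher and 0 lower, against 0.0362% and 0.0271%.

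**Figure D3:**
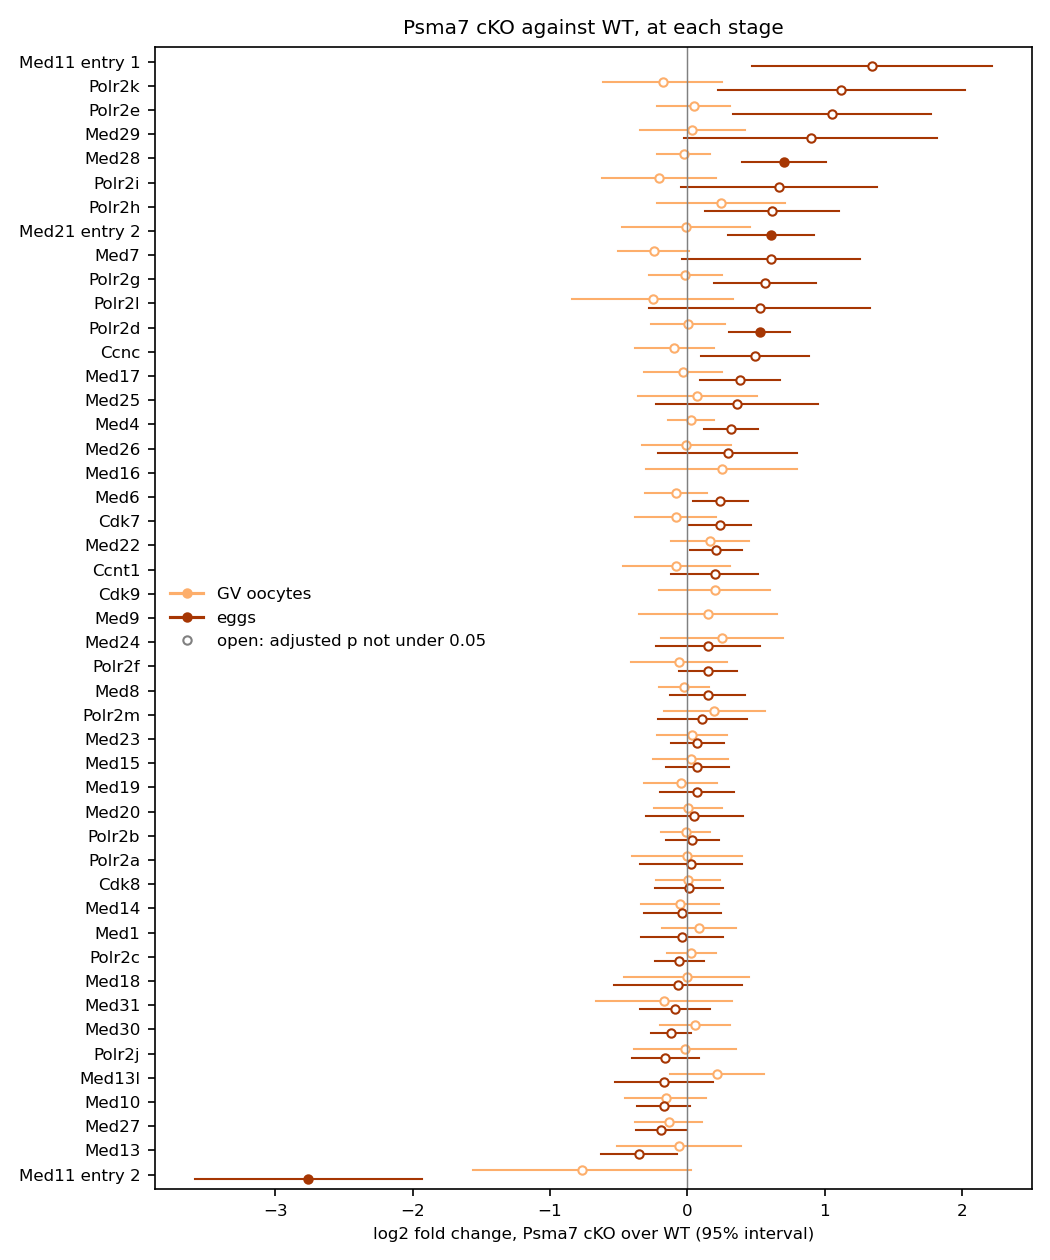
log2 fold change of Psma7 cKO over WT for each member tested, in GV oocytes (light) and eggs (dark), with 95% intervals from limma on 4 libraries a group. Filled points passed an adjusted p of 0.05: 0 in GV oocytes, and in eggs Med28, Polr2d and Med21 entry 2 above 0 and Med11 entry 2 at -2.76.

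**Figure D4:**
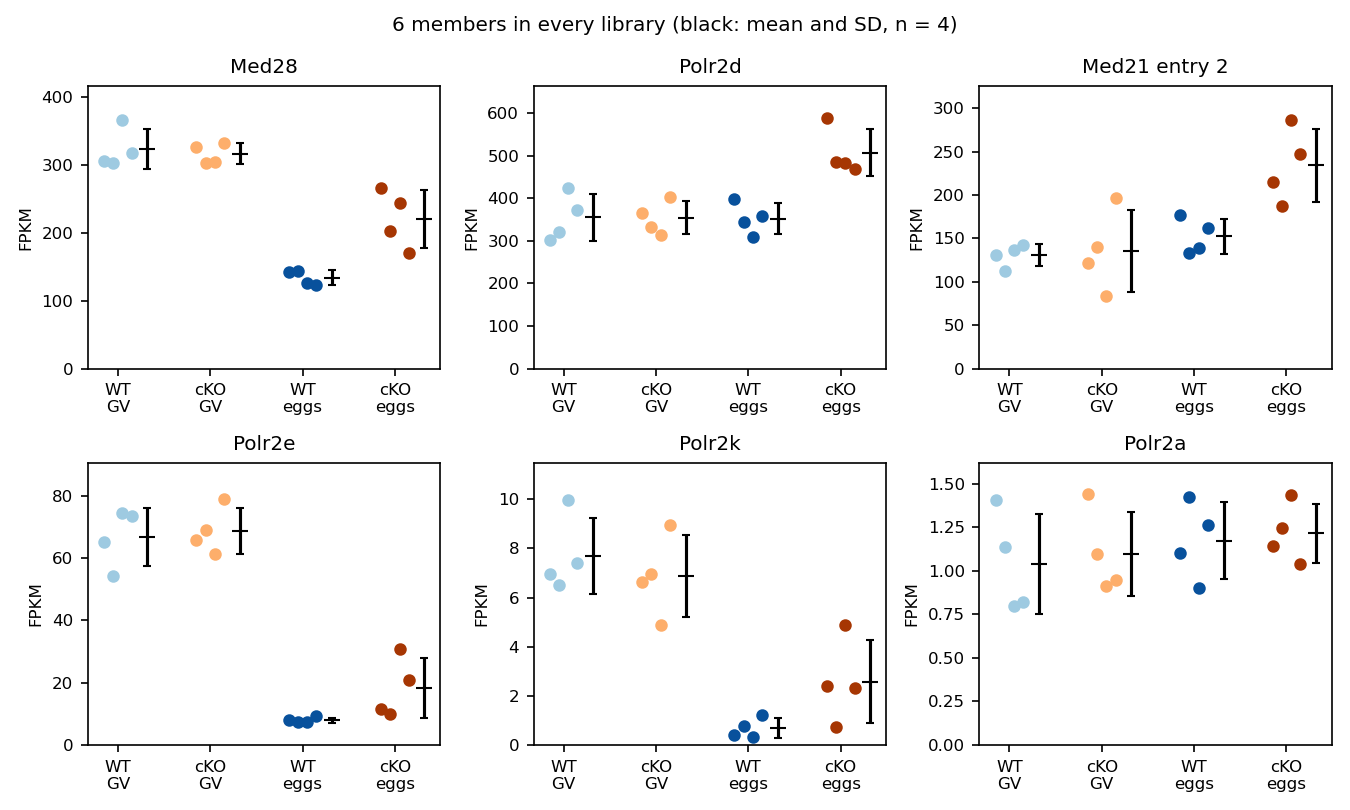
FPKM of 6 members in every library, with points in replicate order and the mean and SD of 4 libraries in black. Med28, Polr2d, Med21 entry 2 and Polr2e lie wholly higher in Psma7 cKO eggs than in WT eggs, Polr2k overlaps, and Polr2a shows 4 overlapping groups near 1 FPKM.

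Med11, a small head subunit, gave the largest genotype difference of any member tested. The gene lies on chr11:70451919-70453727, plus strand (GRCm38). Entry 2 stood at 5.57, 7.22, 8.64 and 4.50 FPKM in WT GV oocytes and rose to 42.1, 42.3, 38.1 and 30.7 in WT eggs. In Psma7 cKO it stood at 5.36, 6.67, 2.44 and 2.14 FPKM in GV oocytes and at 12.6, 4.49, 5.68 and 3.08 in eggs. All 4 Psma7 cKO egg libraries lay below all 4 WT ones, at 16.9% of the WT mean (log2 fold change -2.76, SE 0.366, adjusted p = 0.0149, exact permutation p = 0.0286). The call was lost without WT egg replicate 1 or without WT egg replicate 3, where the log2 fold change still lay within the range of -3.15 to -2.47 found on leaving out each library.

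Entry 1 went the other way in 3 of the 4 Psma7 cKO egg libraries. It held 7, 14, 11 and 6 fragments in WT GV oocytes and 17, 9, 14 and 12 in Psma7 cKO GV oocytes. In WT eggs it held 1, 1, 4 and 1, and in Psma7 cKO eggs 2, 48, 37 and 37. Entry 1 thus made up 0.181% to 0.818% of Med11 fragments in WT eggs, and 1.20%, 48.5%, 35.2% and 50.7% in Psma7 cKO replicates 1 to 4. Replicate 1, with the lowest Psma7 of these 4, also had the highest entry 2 and the lowest entry 1. The difference in entry 1 missed the threshold (log2 fold change 1.34, SE 0.388, adjusted p = 0.061) and passed it without Psma7 cKO replicate 1 (1.79, adjusted p = 0.00247). Entry 1 met the filter of a mean of 1 FPKM only through the Psma7 cKO eggs (mean 2.66, against 0.142 in WT eggs). The second fit left out the Psma7 cKO library that differed from the rest. Neither p-value therefore counts as support for a difference.

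Both entries had the same recovered length of 890 bases, so their values could be added. Summed, Med11 stood at 7.26 ± 2.03 FPKM in WT GV oocytes, 5.27 ± 2.13 in Psma7 cKO GV oocytes, 38.4 ± 5.42 in WT eggs against 9.13 ± 2.71 in eggs of Psma7 cKO (SD, n = 4). The egg difference remained, at -2.11 (SE 0.202, adjusted p = 0.00508). The sum rose on maturation in WT by 2.44 (SE 0.192, adjusted p = 5.85e-07) and in Psma7 cKO by 0.84 (SE 0.313, adjusted p = 0.0346). The difference between these 2 rises, -1.60 (SE 0.393), did not pass the threshold (adjusted p = 0.0524).

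**Figure D5:**
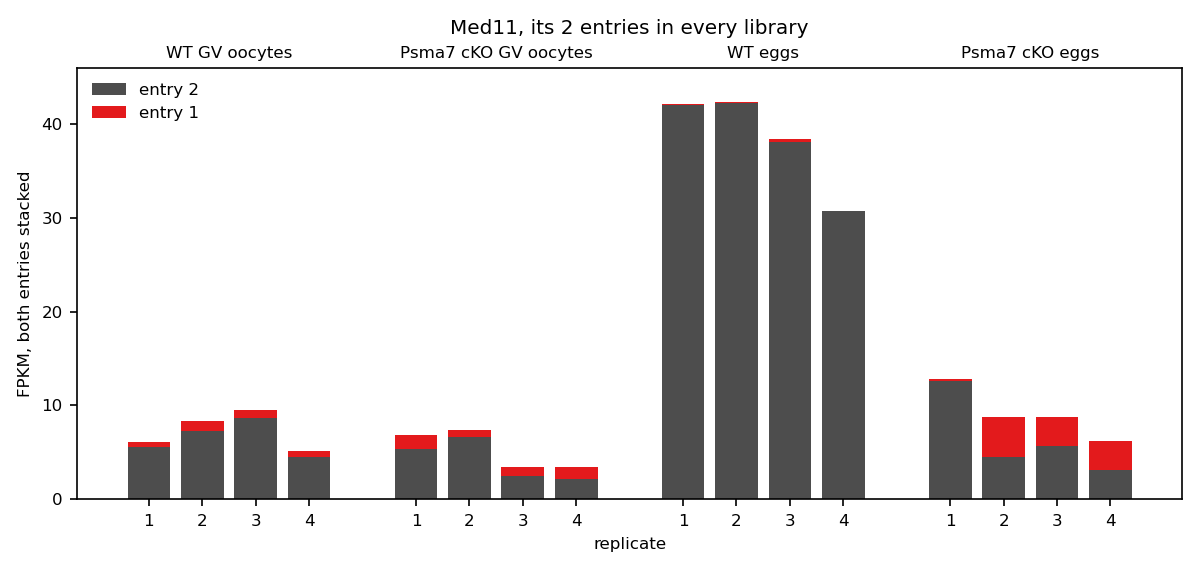
FPKM of Med11 in each of the 16 libraries, entry 2 in grey with entry 1 stacked on it in red. WT eggs stand at 30.8 to 42.4 FPKM, nearly all of it entry 2, and Psma7 cKO eggs at 6.24 to 12.8, with entry 1 a large share in replicates 2, 3 and 4.

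Whether the genotype difference itself changed between stages was tested with all 4 groups in one fit. Of 45 members, 1 was positive and 0 were negative, against 1.07% and 0.188% of 10615 entries. The one was Med28 at 0.73 (SE 0.165, 95% interval 0.38 to 1.08, adjusted p = 0.0404). At an unadjusted p under 0.05, 13 members were positive (28.9%, against 12.7% of all entries). For Med28 the difference between genotypes was -0.03 in GV oocytes and 0.70 in eggs. The negative count was also 0 by limma voom, and 1 member was negative at an unadjusted p under 0.05 (against 5.03% of all entries), namely Med11 entry 2 (-1.99, SE 0.565, adjusted p = 0.0863). The Med28 call was lost in 12 of the 16 fits that left out 1 library and kept only without WT GV replicate 2 or Psma7 cKO egg replicate 1, 2 or 4, with adjusted p from 0.01 to 0.0836 over the 16. Polr2k (1.30, adjusted p = 0.16), Polr2e (1.00, adjusted p = 0.159), Med7 (0.85, adjusted p = 0.183) and Polr2d (0.52, adjusted p = 0.114) missed the threshold, as did Polr2a (0.03, adjusted p = 0.968), Cdk7 (0.32, adjusted p = 0.325), Ccnt1 (0.28, adjusted p = 0.593) and Med11 entry 1 (1.15, adjusted p = 0.177).

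The wider transcription apparatus was read from 4 lists. Of the general transcription factors, which place the polymerase at promoters, 3 of 34 tested were higher in Psma7 cKO eggs and 1 was lower (against 6.53% and 1.49% of all entries), with a median log2 fold change of 0.02. Gtf2b, which bridges TBP and the polymerase, went from 335 to 360 FPKM in WT eggs to 425 to 479 in Psma7 cKO eggs (log2 fold change 0.39, adjusted p = 0.0191). Tbp, the TATA-binding protein, went from 20.5 to 25.2 FPKM to 27.1 to 36.6 (0.50, adjusted p = 0.0345). Ercc3, a helicase of TFIIH, went from 2.91 to 3.23 FPKM to 4.02 to 5.93 (0.65, adjusted p = 0.0402). Taf4, a subunit of TFIID, was lower (-0.39, adjusted p = 0.0485).

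Of the elongation and pausing factors, 0 of 23 were higher in Psma7 cKO eggs and 1 was lower, Cdk13, another CTD kinase, at 1.61 ± 0.148 FPKM in WT and 1.04 ± 0.196 in Psma7 cKO (SD, n = 4, log2 fold change -0.56, adjusted p = 0.0471 by limma). Its Psma7 cKO mean lies near the floor of 1 FPKM. Whether calls in the 4 lists held with 1 library left out was not examined. None of 10 CTD phosphatases and polymerase assembly factors passed in either direction. The phosphatase gene Ctdspl of that list did pass in the test between stages (0.95, SE 0.173, adjusted p = 0.0184). Of the subunits particular to polymerases I and III, 1 of 14 was higher, Polr1d, which both enzymes contain, from 5.43 to 6.97 FPKM in WT eggs to 9.83 to 12.8 in Psma7 cKO eggs (0.87, adjusted p = 0.0182). Its genotype difference also differed between stages (0.72, adjusted p = 0.0324). In GV oocytes none of the 4 lists had a call. On maturation in WT, where 26.1% of all entries rose and 52.4% fell, 16 general transcription factors rose and 14 fell of 34, 8 elongation factors rose and 10 fell of 24, and 0 subunits of polymerases I and III rose while 14 fell of 16.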

How the data were processed

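Libraries were made by Smart-seq2 from 4 pools a group. Per the labels, reads were aligned with TopHat2 2.1.1 to mm10 and quantified with Cufflinks 2.2.1, and the authors deposited 1 table of FPKM values; the annotation was not given in the sources used here. The values of all 28618 entries were whole fragments (100.0%, within 0.001 of a fragment) once entry length and depth were recovered, at 10.5 to 15.7 M fragments a library. Replicates correlated at 0.965 to 0.992 and none were duplicates. Values below 1 FPKM were set to 1, which understates changes of low transcripts. Entries with a mean of at least 1 FPKM were tested on log2 values over the whole table with limma 3.58.1 in R 4.3.3 (moderated, intensity trend), with Benjamini-Hochberg adjusted p under 0.05 as the threshold. Voom on the recovered fragments, chosen after seeing the data, was an alternative, as was summing entries of a name. In simulated data with normal noise, the genotype tests within each stage recovered most known changes. Those changes were larger than the egg differences of Med28, Polr2d and Med21 entry 2, and were added only to entries well above 1 FPKM. Smaller changes, the maturation fits and the interaction were not simulated. Exact tests used Python 3.11.15 and scipy 1.17.1. Same-numbered libraries did not deviate together (correlation -0.496 to 0.285, over 0.1 in 2 of 16 pairs), so no block was used. Full statistics were given for both Med11 entries, Polr2a, Cdk7, Cdk9, Ccnt1, members called between genotypes, the 5 highest and 5 lowest called in each maturation comparison and the 3 highest and 3 lowest in level. Members, lists and role groups were chosen with earlier results of these data known.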

Additional observations from a re-analysis of the deposited data

Results flagged for a closer look

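In 7 of the 183 sets of 4 libraries examined (1 member in 1 group each, with at least 1 library at 1 FPKM or more), 1 library lay far from the other 3 by Dixon's test, and chance alone gives about 1 in 20. Polr2d was at 589 FPKM in Psma7 cKO egg replicate 1, against 468 to 486 in the others, and its call in eggs held without that library. Polr2j was at 527 FPKM in Psma7 cKO GV replicate 4 (others 388 to 393). In WT GV replicate 3, Med6 was at 263 FPKM (others 198 to 206) and Med10 at 142 (others 97.8 to 102). Med7 was at 67.7 FPKM in Psma7 cKO GV replicate 3 (others 81.5 to 83.5), Ccnc at 14.5 in Psma7 cKO GV replicate 1 (others 11.0 to 11.5) and Cdk9 at 1.11 in Psma7 cKO egg replicate 3 (others 0.641 to 0.694).

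The genotype difference of Med28 differed between stages, by 0.733 on the log2 scale in a test of the difference itself. This call was close to the threshold. It was kept in 4 of the 16 fits that left out 1 library and in 5 of 8 other settings (adjusted p up to 0.136 by limma).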

How the results depend on the processing

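Maturation counts at the adjusted threshold stayed within 1.5 times the reported ones under every alternative run, while the few calls between genotypes did not. In eggs, members called higher numbered 0 with no filter on low values and 8 with all 16 libraries in one fit, of which 2 were among the 3 reported, and members called lower numbered 0 with no filter. In the unfiltered fits most residual variances were 0, which makes their moderated variances unreliable. The interaction count of 1 became 0 with 1 FPKM added in place of the floor, with no filter, and with the replicate number as a block. With that block, eggs gave 2 members higher and 1 lower, and the samples share only a number, since same-numbered libraries did not deviate together. At 2-fold in place of 3-fold, 4 members were higher in Psma7 cKO eggs and 6 were higher on maturation in WT. In Psma7 cKO, 6 were higher and 14 lower on maturation. The share of all entries was not counted at 2-fold, so these counts have no background beside them. With its entries summed, the egg difference of Med11 entry 1 became that of the gene, -2.11, the reverse of the entry's own.

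Leaving out each library in turn gave 0 to 7 members higher and 0 to 1 lower in eggs, 10 to 12 and 23 to 26 on maturation in WT, 11 to 12 and 22 to 26 in Psma7 cKO, and 0 to 4 positive and 0 to 1 negative in the interaction. By the 3-fold rule it gave 0 to 1 higher and 1 to 1 lower in eggs, 2 to 4 and 11 to 12 in WT, and 0 to 2 and 8 to 11 in Psma7 cKO. GV oocytes gave 0 throughout. Med11 entry 1 had no value in eggs without Psma7 cKO replicate 2, where it was under the filter. Members near 1 FPKM rest on few fragments, and small differences there were not detectable at this depth.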
